A study of Rattus norvegicus with 9 samples.

Results

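The expression of 10 genes of the circadian clock and its output, Dbp, Tef, Nfil3, Per1, Per2, Per3, Nr1d1, Nr1d2, Arntl and Cry1, was examined by RNA sequencing of the left tibia of rats. The genes were matched by symbol among the 22589 genes listed for each rat, and all 10 had enough counts to enter the test, which covered 14520 genes. They were chosen by their function and on their read counts in these same libraries, with earlier comparisons of the 3 groups known. Their levels and differences are therefore given as a description, without a p-value. The RE/Ovx group (resistance exercise) had both ovaries removed and climbed a ladder with loads on 5 days a week for 12 weeks, after 2 weeks of adaptive training, until the load reached 100% of body weight. The 12 weeks of climbing began in week 13 after the operation. The NE/Ovx group (no exercise) had both ovaries removed and did not climb. The Sham group had a sham operation that left the ovaries in place and did not climb. All rats were female Sprague-Dawley rats, 9 weeks old when bought and operated 1 week later, and ovariectomy served as the model of postmenopausal osteoporosis. Of each group 3 rats were sequenced, named here by the numbers the submitters gave them: RE/Ovx rats 3, 5 and 8, NE/Ovx rats 6, 8 and 9, and Sham rats 7, 8 and 12. Each library held between 12297992 and 16671533 counts. All rats lived in 12 h of light and 12 h of dark. The hour at which each tibia was taken and the time since the last climb are not given in the sources used here, so the group and the hour of collection cannot be told apart for any of these genes.

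The circadian clock is a loop of transcription and translation that runs in nearly every cell, bone cells included, and returns to the same state once a day. Arntl (also called Bmal1) and its partner Clock bind E-box sequences and switch on the Per and Cry genes, whose proteins return to the nucleus and block them. The same pair switches on Nr1d1 and Nr1d2 (the REV-ERB receptors), which repress Arntl through ROR elements. Dbp and Tef, PAR bZIP factors, activate output genes through D-box sequences, and Nfil3 represses through the same sequences. In mouse liver, Nr1d1, Nr1d2, Dbp, Tef and Per3 peak in the light phase, Per1 and Per2 around dusk, and Arntl, Nfil3 and Cry1 late in the night and towards dawn. A single sample of each rat therefore reads 1 point of this cycle.

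The elements named above are short enough to be seen in the promoters. Of the 10 genes, 9 have a promoter window in the RefSeq annotation of rat build GRCr8, from 250 bases before to 50 after a start site. Nr1d1 has a window for each of its start sites, which makes 10 windows. Arntl was matched there by its synonym Bmal1 and the other genes by symbol. Both strands were searched for the E-box CACGTG, an E-box variant CACGTT, the D-boxes TTATGTAA and TTACGTAA, the ROR element of 11 letters and the cyclic AMP element TGACGTCA. Windows of 4 genes, Nr1d1, Tef, Per2 and Arntl, held a match. The windows of Arntl, Tef and Per2 and the second one of Nr1d1 are printed because they show the element of each kind beside the start of a gene described here, with the matched letters in capitals and the sequence read 5′ to 3′ along the gene's strand.
Arntl, chr1:176766078-176766377, plus strand: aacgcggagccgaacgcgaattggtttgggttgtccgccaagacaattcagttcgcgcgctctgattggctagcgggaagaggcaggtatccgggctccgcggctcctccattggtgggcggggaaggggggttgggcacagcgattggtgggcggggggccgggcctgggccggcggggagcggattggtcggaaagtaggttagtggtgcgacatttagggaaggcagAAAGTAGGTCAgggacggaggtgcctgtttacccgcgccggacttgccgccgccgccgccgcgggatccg
Nr1d1, chr10:84229405-84229704, minus strand: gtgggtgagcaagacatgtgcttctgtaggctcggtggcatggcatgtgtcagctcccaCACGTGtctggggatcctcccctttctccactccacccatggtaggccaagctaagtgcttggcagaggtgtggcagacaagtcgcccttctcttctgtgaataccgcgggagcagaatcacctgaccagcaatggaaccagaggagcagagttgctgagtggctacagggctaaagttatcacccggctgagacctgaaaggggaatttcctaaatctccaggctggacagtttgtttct
Tef, chr7:115206577-115206876, plus strand: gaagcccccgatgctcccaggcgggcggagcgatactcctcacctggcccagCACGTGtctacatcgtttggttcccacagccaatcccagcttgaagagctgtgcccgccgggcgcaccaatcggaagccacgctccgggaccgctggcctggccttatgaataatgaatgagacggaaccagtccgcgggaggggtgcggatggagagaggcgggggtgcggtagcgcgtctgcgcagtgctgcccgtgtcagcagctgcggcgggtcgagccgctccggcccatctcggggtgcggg
Per2, chr9:99496944-99497243, minus strand: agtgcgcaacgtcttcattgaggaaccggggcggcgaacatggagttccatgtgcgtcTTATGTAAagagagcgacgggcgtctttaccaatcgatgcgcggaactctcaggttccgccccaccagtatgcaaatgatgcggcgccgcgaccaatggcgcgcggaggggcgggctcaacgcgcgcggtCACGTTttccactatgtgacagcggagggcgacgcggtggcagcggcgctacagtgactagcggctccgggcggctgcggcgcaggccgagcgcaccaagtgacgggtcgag
The ROR element of Arntl began 20 bases before the start site, and 0.356% of 33469 promoter windows of the same length held one. The E-box began 191 bases before the start in this window of Nr1d1 and 198 bases before it in Tef, and 6.42% of all windows held this E-box. Per2 had the E-box variant 62 bases before its start (4.83% of all windows) and the D-box TTATGTAA 192 bases before it (1.01% of all windows). The first window of Nr1d1 held the E-box variant on the opposite strand, 174 bases before the start. The cyclic AMP element was in 1.83% of all windows and in none of these 10, which says only that these letters are not in these stretches. The matches are letters in a window and were not measured as binding sites. The deposited values were made on another build, Rnor_6.0, and none was placed on these coordinates.

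Compared per length of transcript, as FPKM, the 10 genes were of similar level in the tibia. Dbp had the highest median over the 9 rats (13.3 FPKM, from 6.09 to 20.4) and Cry1 the lowest (4.27 FPKM, from 2.70 to 4.63). Between them in order of the median stood Per1, Per3, Nr1d2, Nr1d1, Arntl, Tef, Nfil3 and Per2. In this order the range of each gene overlapped that of its neighbour, whereas the ranges of Dbp and Cry1 did not meet. Within groups the order differed, since Dbp had the highest mean of the 10 in RE/Ovx rats (19.2 FPKM), ranked 6th in NE/Ovx rats (6.46 FPKM) and came after Per1 in Sham rats (12.1 FPKM for Dbp and 12.8 FPKM for Per1). The genes differed more in how far they varied between rats. The highest of the 9 rats had 5.62 times the CPM of the lowest for Nr1d1, 3.34 times for Dbp and 3.33 times for Per3, against 1.68 times for Nfil3 and 1.66 times for Cry1. CPM stands for counts scaled to a common library size with TMM factors (the usual counts-per-million unit), and the values of single rats below are given in this unit.

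The output factors Dbp and Nfil3, which act on the same DNA element in opposite directions, moved apart between the ovariectomized groups. Dbp was at 33.2, 28.3 and 32.5 CPM in RE/Ovx rats 3, 5 and 8, at 11.3, 9.96 and 10.85 CPM in NE/Ovx rats 6, 8 and 9, and at 12.3, 22.2 and 26.9 CPM in Sham rats 7, 8 and 12. All RE/Ovx rats were above every other rat, all NE/Ovx rats were below every other rat, and the Sham rats spread over the gap between them. On the log2 scale the fold change of Dbp was 1.55 (standard error 0.24) for RE/Ovx against NE/Ovx, a ratio of 2.93, and 0.62 (standard error 0.23) for RE/Ovx against Sham, which became 0.35 without Sham rat 7. For NE/Ovx against Sham it was -0.93 (standard error 0.24). Nfil3 was at 19.0, 17.4 and 17.7 CPM in RE/Ovx rats, at 27.5, 28.5 and 27.5 CPM in NE/Ovx rats and at 29.1, 25.4 and 27.8 CPM in Sham rats. The 3 RE/Ovx rats were below all others, while NE/Ovx and Sham rats overlapped. Its log2 fold change was -0.63 (standard error 0.10) for RE/Ovx against NE/Ovx, -0.61 (standard error 0.10) for RE/Ovx against Sham and 0.02 (standard error 0.10) for NE/Ovx against Sham. The SD of Nfil3 was at most 1.88 CPM in any group, so the RE/Ovx mean of 18.02 CPM was far outside the spread of the NE/Ovx (27.9 CPM) and Sham (27.4 CPM) groups.

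The ratio of Dbp to Nfil3 within a rat, which does not depend on the scaling of the library, put the same order in 1 number. It was 1.75, 1.63 and 1.84 in RE/Ovx rats, 0.411, 0.350 and 0.394 in NE/Ovx rats and 0.423, 0.876 and 0.967 in Sham rats. Dbp CPM exceeded Nfil3 CPM in each RE/Ovx rat and in no other rat. CPM is not scaled to transcript length, so where the ratio crosses 1 depends on the unit. As FPKM, Dbp was above Nfil3 in every Sham rat and in NE/Ovx rat 6 as well (6.83 and 6.69 FPKM). Tef, the second PAR bZIP factor, was at 38.3, 32.9 and 42.2 CPM in RE/Ovx rats, at 23.65, 22.4 and 25.15 CPM in NE/Ovx rats and at 28.1, 30.9 and 41.1 CPM in Sham rats. As with Dbp, every NE/Ovx rat lay below every other rat, but RE/Ovx and Sham rats overlapped. For Tef the log2 fold change was 0.67 (standard error 0.15) for RE/Ovx against NE/Ovx, 0.18 (standard error 0.15) for RE/Ovx against Sham and -0.49 (standard error 0.15) for NE/Ovx against Sham.

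**Figure D1:**
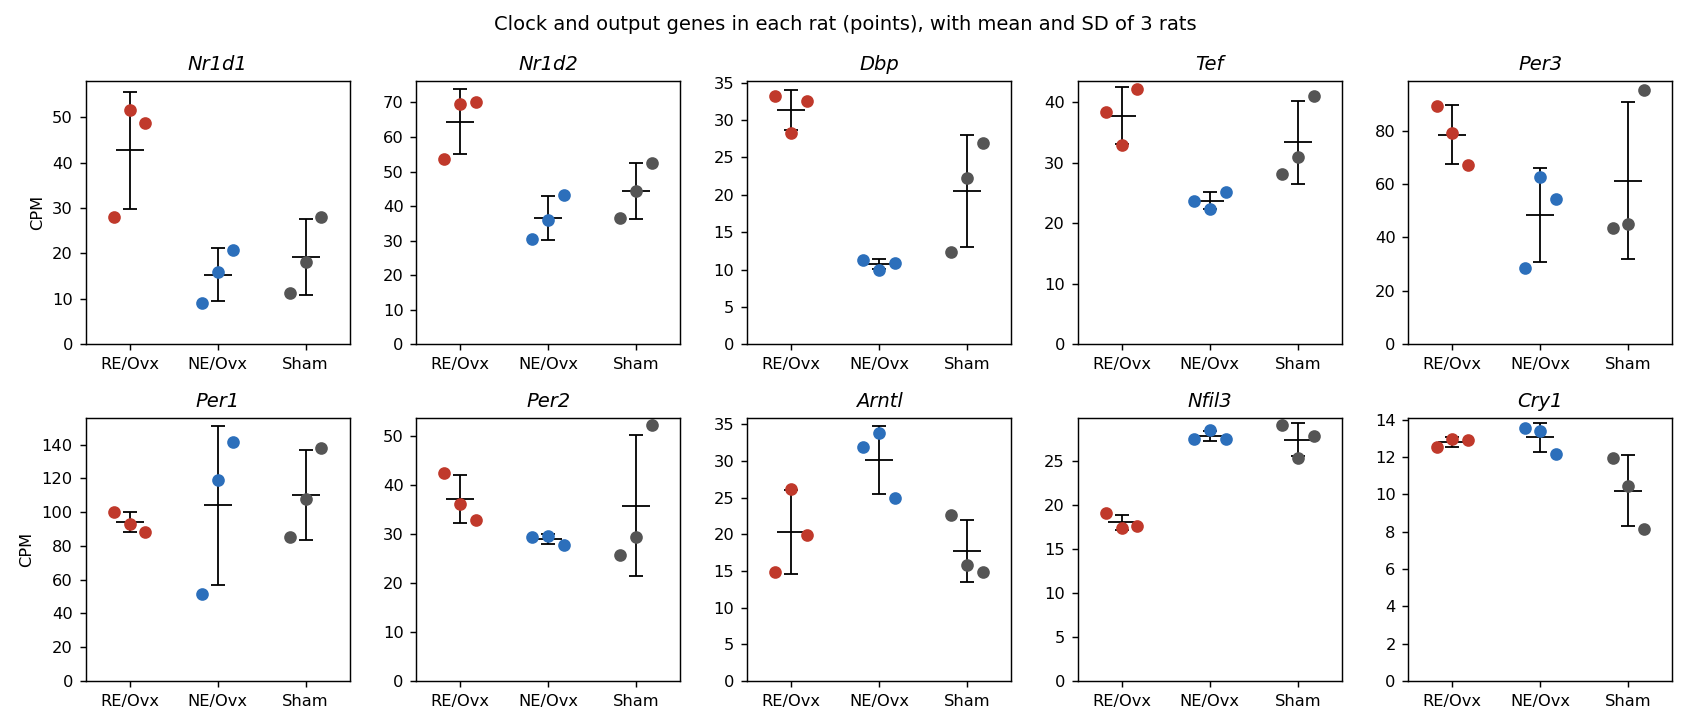
CPM (vertical axes, each from 0) of the 10 genes in RE/Ovx, NE/Ovx and Sham rats, with a point for each rat and black bars for the mean and SD of the 3 rats. The RE/Ovx points of Dbp (28.3 to 33.2 CPM) stand above and those of Nfil3 (17.4 to 19.0 CPM) below all other points of their panels, and the Sham points of most panels are widely spread.

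The REV-ERB receptors Nr1d1 and Nr1d2 were higher in the RE/Ovx group than in the NE/Ovx group, and their target Arntl was mostly lower. Nr1d1 was at 28.0, 51.6 and 48.8 CPM in RE/Ovx rats, at 9.18, 15.9 and 20.85 CPM in NE/Ovx rats and at 11.35, 18.2 and 28.1 CPM in Sham rats. RE/Ovx rat 3 was at the level of Sham rat 12, and its other group members were above every rat of the other groups. The log2 fold change was 1.48 (standard error 0.37) for RE/Ovx against NE/Ovx, a ratio of 2.78, then 1.16 (standard error 0.37) for RE/Ovx against Sham and -0.32 (standard error 0.37) for NE/Ovx against Sham, which turned to 0.04 without Sham rat 12. Nr1d2 was at 53.5, 69.7 and 70.3 CPM in RE/Ovx rats, at 30.4, 36.0 and 43.2 CPM in NE/Ovx rats and at 36.4, 44.25 and 52.4 CPM in Sham rats. Its RE/Ovx rats were above all others, by a narrow margin over Sham rat 12 in RE/Ovx rat 3. For Nr1d2 it was 0.82 (standard error 0.17) for RE/Ovx against NE/Ovx, 0.54 (standard error 0.17) for RE/Ovx against Sham and -0.28 (standard error 0.17) for NE/Ovx against Sham.

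Arntl, the activator whose promoter carries the ROR element printed above, was at 14.8, 26.2 and 19.85 CPM in RE/Ovx rats, at 31.9, 33.8 and 24.9 CPM in NE/Ovx rats and at 22.6, 15.9 and 14.8 CPM in Sham rats. NE/Ovx rats were above every Sham rat, and RE/Ovx rat 5 reached into the NE/Ovx range. The log2 fold change was -0.57 (standard error 0.23) for RE/Ovx against NE/Ovx, 0.19 (standard error 0.23) for RE/Ovx against Sham and 0.76 (standard error 0.23) for NE/Ovx against Sham. Without RE/Ovx rat 5, the difference to Sham turned to -0.05. The ratio of Nr1d1 to Arntl was 1.89, 1.97 and 2.46 in RE/Ovx rats, 0.288, 0.471 and 0.837 in NE/Ovx rats and 0.502, 1.15 and 1.89 in Sham rats. Nr1d1 CPM was below Arntl CPM in each NE/Ovx rat and in Sham rat 7, and above it in the other 5 rats. As FPKM, Nr1d1 was above Arntl in NE/Ovx rat 9 too (8.09 and 7.81 FPKM). Sham rat 12 lay at the level of RE/Ovx rat 3 in this ratio, although its Dbp to Nfil3 ratio stayed below every RE/Ovx rat.

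The Per genes and Cry1, the negative arm of the loop, showed smaller or less regular differences. Per3, whose product is the least needed for rhythm of the PER proteins in mice, was at 89.4, 79.2 and 67.2 CPM in RE/Ovx rats, at 28.6, 62.5 and 54.4 CPM in NE/Ovx rats and at 43.5, 45.2 and 95.3 CPM in Sham rats. RE/Ovx rats were above NE/Ovx rats, by 0.69 ± 0.33 on the log2 scale (standard error) and by 0.43 without NE/Ovx rat 6, and Sham rat 12 was above them all. Per2 was at 42.5, 36.1 and 32.9 CPM in RE/Ovx rats, at 29.45, 29.7 and 27.8 CPM in NE/Ovx rats and at 25.7, 29.4 and 52.2 CPM in Sham rats. Its RE/Ovx rats too were above its NE/Ovx rats, by 0.36 ± 0.23 on the log2 scale (standard error), and Sham rat 12 again held the highest value. Without Sham rat 12 the log2 fold changes for NE/Ovx against Sham, -0.33 for Per3 and -0.30 for Per2, became 0.12 and 0.05.

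Per1, which light, glucocorticoids and cyclic AMP induce within the hour in addition to its daily rhythm, did not follow Per3 and Per2. It was at 100.3, 93.2 and 88.4 CPM in RE/Ovx rats, at 51.4, 119 and 142 CPM in NE/Ovx rats and at 85.2, 108 and 138 CPM in Sham rats. NE/Ovx rat 6 was the lowest and NE/Ovx rat 9 the highest of all 9 rats, so the NE/Ovx group enclosed both others. The log2 fold change was -0.15 (standard error 0.31) for RE/Ovx against NE/Ovx, and its sign turned to 0.16 without NE/Ovx rat 9. For RE/Ovx against Sham it was -0.23 and for NE/Ovx against Sham -0.08, each with a standard error of 0.31. Cry1, a repressor of Arntl and Clock, was at 12.5, 12.99 and 12.9 CPM in RE/Ovx rats, at 13.6, 13.4 and 12.2 CPM in NE/Ovx rats and at 11.96, 10.5 and 8.17 CPM in Sham rats. Both ovariectomized groups were above every Sham rat and overlapped each other. For Cry1 the log2 fold change was -0.03 for RE/Ovx against NE/Ovx, 0.32 for RE/Ovx against Sham and 0.35 for NE/Ovx against Sham, each with a standard error of 0.15. Cry1 had the fewest counts of the 10 genes, from 98 to 201 per rat.

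Counted over the 10 genes, RE/Ovx and NE/Ovx rats did not overlap for 7 (Nr1d1, Nr1d2, Dbp, Tef, Per3 and Per2 higher and Nfil3 lower in every RE/Ovx rat), where 11.6% of all tested genes did not overlap. RE/Ovx and Sham rats did not overlap for 4 (Nr1d2, Dbp and Cry1 higher, Nfil3 lower), beside 27.8% of all tested genes. NE/Ovx and Sham rats did not overlap for 4 (Arntl and Cry1 higher, Dbp and Tef lower), beside 25.3%. In edgeR's quasi-likelihood fit of all 9 rats, 0 of the 10 passed an adjusted p of 0.05 for RE/Ovx against NE/Ovx, where 0% of all tested genes (0 genes) did, and 6 had an unadjusted p under 0.05, beside 5.28% of all tested genes. DESeq2 called 3 of the 10 in this comparison, Dbp, Nr1d2 and Nfil3, of 5 genes called in all (0.0382%), and limma on log2(FPKM + 1) called 0 of the 10 (0% of all tested genes). For RE/Ovx against Sham 1 passed (Nfil3, lower), beside 8.06% of all tested genes, and 4 had an unadjusted p under 0.05, beside 25.6%. DESeq2 called Nr1d1, Nr1d2 and Nfil3 here, beside 13.5% of all genes, and limma on log2(FPKM + 1) called Nfil3, beside 6.18%. For NE/Ovx against Sham 0 passed in edgeR, beside 1.23%, and 4 had an unadjusted p under 0.05, beside 20.5%, while DESeq2 called Dbp and Arntl, beside 6.88% of all genes, and limma on log2(FPKM + 1) called 0 of the 10, beside 0.771%. Nfil3 lost its call without RE/Ovx rat 5 or RE/Ovx rat 8, when 0 of the 10 passed. The median log2 fold change of the 10 genes was 0.52 for RE/Ovx against NE/Ovx, 0.25 for RE/Ovx against Sham and -0.29 for NE/Ovx against Sham, beside 0.0079, -0.0078 and 0.0029 over all tested genes. Because the genes were picked with these differences known, nothing is read from these counts against the background. The 3 comparisons share rats, so they are not independent of each other.

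**Figure D2:**
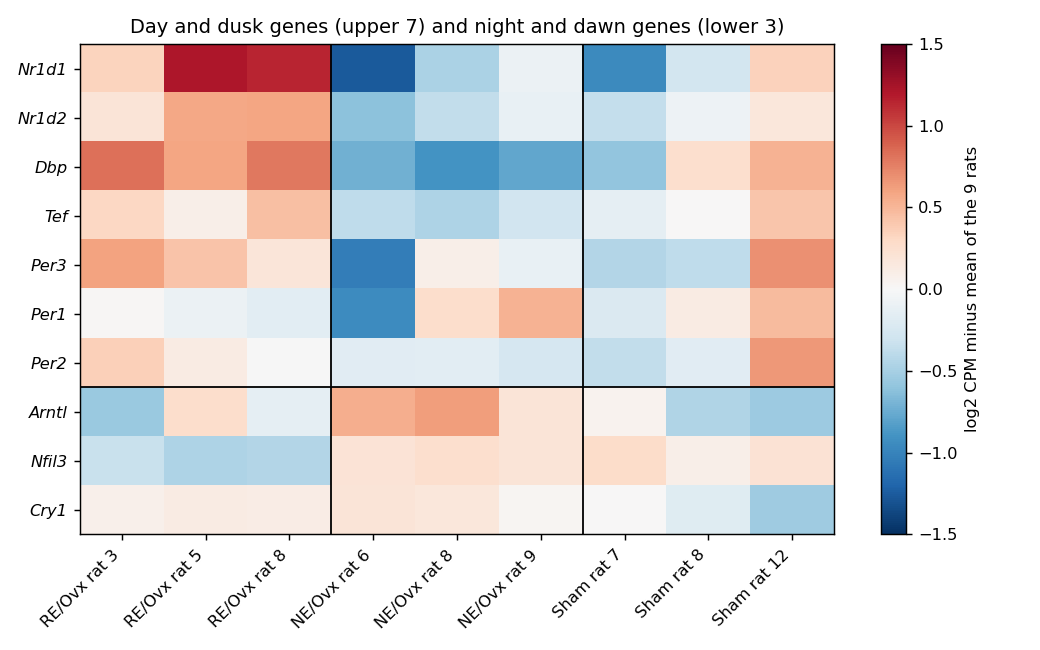
Log2 CPM of each gene in each rat minus its mean over the 9 rats (colour, red above and blue below the mean), with the 7 genes that peak by day or around dusk above the line and the 3 that peak by night or towards dawn below it. The upper block is mostly red in RE/Ovx rats, mostly blue in NE/Ovx rats and runs through both colours over the Sham rats.

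To sum up the genes by their place in the cycle, the mean centred log2 CPM of the 7 day and dusk genes (Nr1d1, Nr1d2, Dbp, Tef, Per3, Per1 and Per2) minus that of the 3 night and dawn genes (Arntl, Nfil3 and Cry1) was taken in each rat. This day-minus-night value was 0.65, 0.44 and 0.58 in RE/Ovx rats 3, 5 and 8, it was -1.04, -0.64 and -0.30 in NE/Ovx rats 6, 8 and 9, and it was -0.55, 0.11 and 0.76 in Sham rats 7, 8 and 12. RE/Ovx rats were all on the day side and NE/Ovx rats all on the night side, and the Sham rats ran from the NE/Ovx range in rat 7 to above every RE/Ovx rat in rat 12. The group means were 0.56 ± 0.10 in the RE/Ovx group, -0.66 ± 0.37 in the NE/Ovx group and 0.10 ± 0.65 in the Sham group (SD, n = 3 each). The RE/Ovx mean was 1.22 above the NE/Ovx mean, and between 1.03 and 1.41 above it in 19 alternatives that left out a gene or a rat or changed the scale. RE/Ovx exceeded Sham by 0.45 (0.12 to 0.78 in the alternatives), less than the SD of the Sham group. NE/Ovx was 0.77 below Sham (a difference of -0.77, and -1.09 to -0.44 in the alternatives).

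The spread within the Sham group was itself ordered across genes. Sham rat 12 had the highest and Sham rat 7 the lowest level of the group for all 7 day and dusk genes, from Nr1d1 (28.1 CPM in rat 12 and 11.35 CPM in rat 7) to Per2 (52.2 CPM in rat 12 and 25.7 CPM in rat 7). For Arntl and Cry1 the order was the opposite, with 14.8 and 8.17 CPM in rat 12 and 22.6 and 11.96 CPM in rat 7. Nfil3 alone was nearly level between them, at 27.8 CPM in rat 12 and 29.1 CPM in rat 7. In the day-minus-night value these Sham rats stood at 0.76 and -0.55, beside RE/Ovx and NE/Ovx means of 0.56 and -0.66. The former are values of single rats and the latter means of 3 rats, and the cause of either difference was not tested. In the NE/Ovx group, rat 6 was the lowest of the 9 rats for 4 of the 7 day and dusk genes, and in the RE/Ovx group the order of the rats changed from gene to gene.

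**Figure D3:**
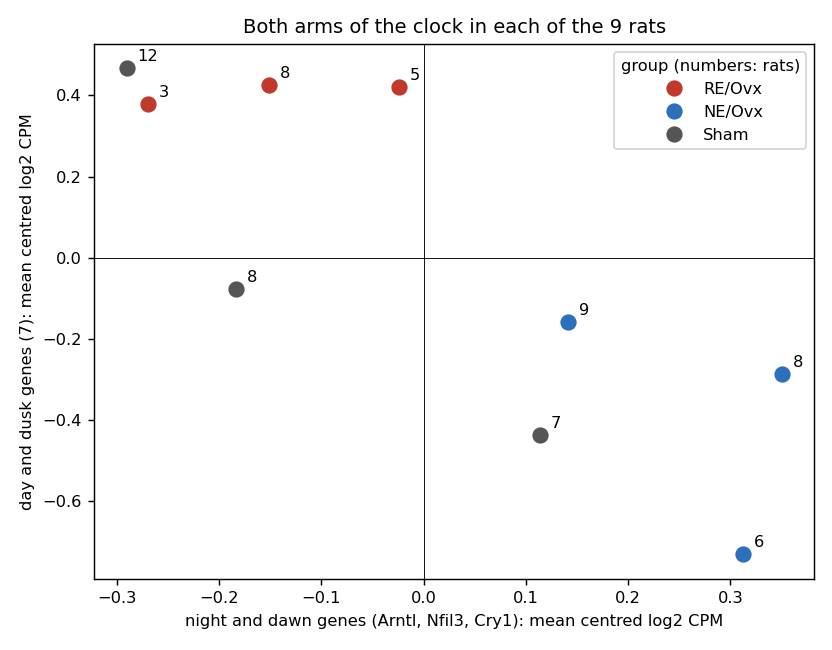
Each rat placed by the mean centred log2 CPM of the 3 night and dawn genes (horizontal axis) and of the 7 day and dusk genes (vertical axis), with rats numbered and coloured by group. RE/Ovx rats lie at the upper left (0.38 to 0.43 on the vertical axis) and NE/Ovx rats at the lower right (-0.73 to -0.16), with Sham rats 12 and 7 at opposite ends.

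Whether the 10 genes moved as 1 shift of clock time would move them was then described. If the groups had been read at different points of 1 cycle, genes on one side of the 24 h circle would be higher and those on the opposite side lower. The log2 fold changes were fitted by least squares to a 24 h cosine over the textbook peak hour of each gene in mouse liver, to the nearest 2 h after lights on, which is Nr1d1 6, Nr1d2 8, Dbp, Tef and Per3 10, Per1 12, Per2 14, Cry1 20, and Arntl and Nfil3 22. These hours come from another species and tissue, and the curve gives all genes the same amplitude. For RE/Ovx against NE/Ovx the fitted amplitude was 0.87 with the largest excess at hour 7.57, 8 of 10 genes had the fitted sign, and the curve held 66.5% of the summed squared fold changes. Nr1d2, Tef, Per3, Arntl and Nfil3 lay within 0.13 of the curve. Dbp lay 0.85 and Nr1d1 0.68 above it, Cry1, at -0.03 where the curve was at -0.86, lay 0.83 above it, and the signs of Per1 and Per2 were off the curve.

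For NE/Ovx against Sham the same fit had an amplitude of 0.45 with the largest excess at hour 21.65 and the largest deficit at hour 9.65, and all 10 genes had the fitted sign with 70.6% of the squared change on the curve. Nfil3, at 0.02 where the curve was at 0.44, and Dbp, at -0.93 where the curve was at -0.44, lay farthest from it. Without Sham rat 12, 6 of 10 genes had the fitted sign and 36.5% lay on the curve. For RE/Ovx against Sham the amplitude was 0.54 with the largest excess at hour 5.88, but 7 of 10 genes had the fitted sign and only 40.5% of the squared change lay on the curve. Arntl and Nfil3, given the same peak hour, differed here in sign (0.19 for Arntl and -0.61 for Nfil3), and Cry1 was at 0.32 where the curve was at -0.46. The sign of Arntl in this comparison rests on RE/Ovx rat 5, as given above. The largest distances from the curve were those of Cry1 (0.78), Nr1d1 (0.62) and Arntl (0.44). The fitted hours depended on the fit. With weights of 1 over the squared standard error, the largest excess fell at hour 9.37 for RE/Ovx against Sham. With the same weights it fell at hour 9.52 for RE/Ovx against NE/Ovx and at hour 21.53 for NE/Ovx against Sham. Leaving out a rat gave hours 4.59 to 7.13 for RE/Ovx against Sham.

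**Figure D4:**
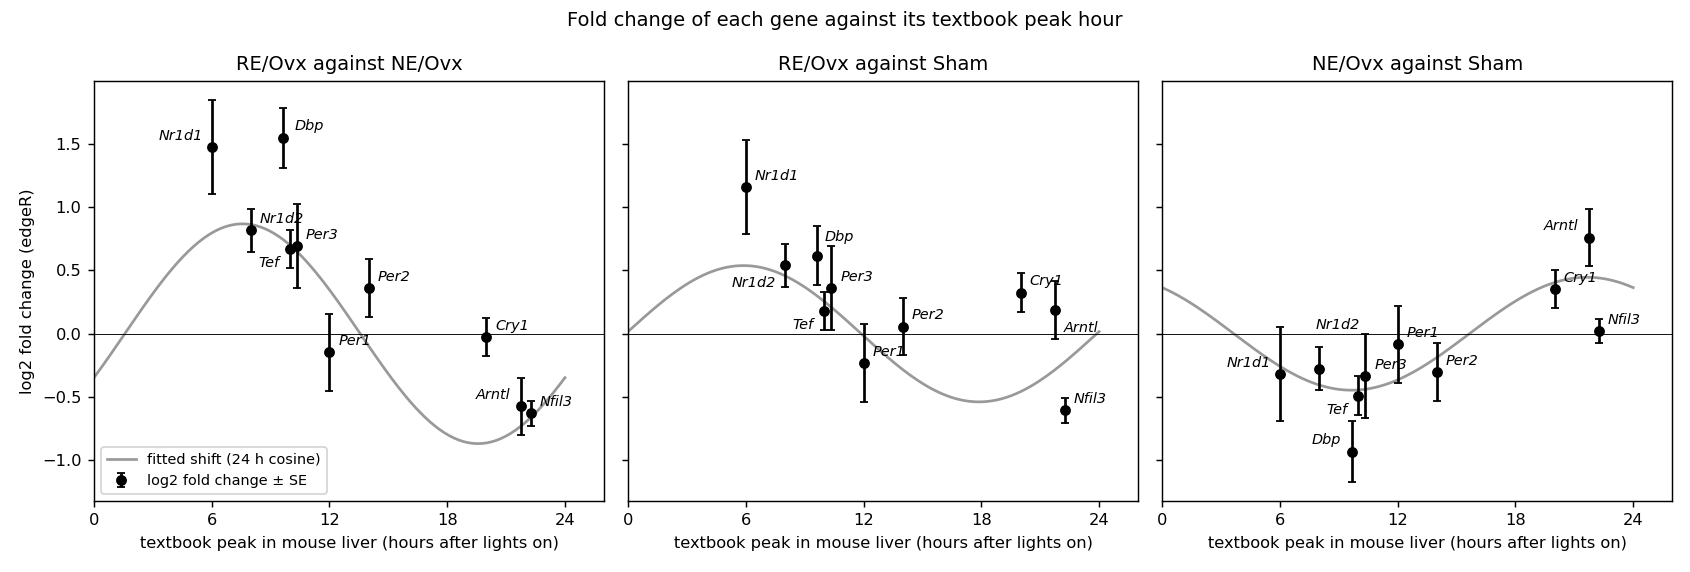
Log2 fold change from edgeR (points, with standard error bars) of the 10 genes against their textbook peak hour in mouse liver, for the 3 comparisons, with the fitted 24 h cosine in grey; genes at the same hour are set slightly apart. For RE/Ovx against NE/Ovx Nr1d2, Tef, Per3, Arntl and Nfil3 lie near the cosine while Dbp, Cry1 and Nr1d1 lie 0.68 to 0.85 above it, and for RE/Ovx against Sham Cry1 (0.78 above) and Nr1d1 (0.62 above) lie farthest from it.

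The same curve was also fitted to each rat's deviation from the mean of all 9. Since the genes were picked with their group differences known, this describes the same values again and adds no support. The hours are relative to that mean and are not clock times. The largest excess fell at hours 10.6, 5.91 and 6.20 in RE/Ovx rats 3, 5 and 8 and at hours 20.5, 19.7 and 21.0 in NE/Ovx rats 6, 8 and 9. In Sham rats it fell at hour 19.97 in rat 7 and at hour 11.3 in rat 12, and Sham rat 8 held only 1.92% of its squared deviation on the curve. The share on the curve was 45.2% to 67.5% in RE/Ovx rats and 23.5% to 70.7% in NE/Ovx rats. Sham rat 7 thus stood with the NE/Ovx rats and Sham rat 12 with RE/Ovx rat 3.

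Clock genes outside the 10 were read in the same fit. Of 17 other core clock genes and modifiers, 14 were tested, and none passed in any of the 3 comparisons. In edgeR 0, 2 and 4 of the 14 had an unadjusted p under 0.05 for RE/Ovx against NE/Ovx, RE/Ovx against Sham and NE/Ovx against Sham. Over all tested genes the shares were 5.28%, 25.6% and 20.5%, and nothing is read from these counts. The median log2 fold changes of the 14 genes were -0.0043, 0.14 and 0.07, and the first and the last took either sign as rats were left out. Bhlhe41, a repressor that competes at E-boxes, was at 10.2, 16.4 and 13.8 CPM in RE/Ovx rats, at 7.86, 10.6 and 10 CPM in NE/Ovx rats and at 7.01, 7.50 and 12.6 CPM in Sham rats, and RE/Ovx exceeded NE/Ovx by 0.50 ± 0.25 on the log2 scale (standard error; edgeR adjusted p = 0.948). Btrc, part of the ubiquitin ligase that marks PER proteins for degradation, differed by 0.21 ± 0.10 in the same comparison (edgeR adjusted p = 0.948). Npas2, which can stand in for Clock as the partner of Arntl, was picked after its values were seen. It was at 3.03, 17.5 and 9.96 CPM in RE/Ovx rats, at 14.2, 19.6 and 16 CPM in NE/Ovx rats and at 6.60, 5.40 and 3.25 CPM in Sham rats. All NE/Ovx rats were above all Sham rats, as with Arntl, and RE/Ovx rat 3 was the lowest of all (1.70 ± 0.50 on the log2 scale for NE/Ovx against Sham, edgeR adjusted p = 0.11). Clock, also picked after its values were seen, was at 58.5, 78.3 and 82.2 CPM in RE/Ovx rats, at 70.3, 73.5 and 75.9 CPM in NE/Ovx rats and at 61.4, 59.9 and 53.3 CPM in Sham rats (0.33 ± 0.13 on the log2 scale for NE/Ovx against Sham, edgeR adjusted p = 0.178).

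Among 9 clock output genes, Hlf, the third PAR bZIP factor and a close relative of Dbp and Tef, rose in RE/Ovx rats over Sham rats, and Alas1, the first enzyme of heme synthesis, fell. Hlf was at 10.5, 10.1 and 11.2 CPM in RE/Ovx rats, at 4.19, 4.63 and 5.33 CPM in NE/Ovx rats and at 4.88, 5.24 and 7.25 CPM in Sham rats. Every RE/Ovx rat was above every other rat, by 0.87 ± 0.19 on the log2 scale (standard error) over Sham, higher in 3 of 3 rats (edgeR adjusted p = 0.0268). Against NE/Ovx the difference of Hlf was 1.16 ± 0.19, which did not pass over all genes (edgeR adjusted p = 0.603). Alas1 was at 94.4, 69.2 and 92.9 CPM in RE/Ovx rats, at 109, 98.85 and 90.5 CPM in NE/Ovx rats and at 122, 138 and 118 CPM in Sham rats. RE/Ovx differed from Sham by -0.56 ± 0.13 on the log2 scale, lower in 3 of 3 rats (edgeR adjusted p = 0.0316). Every NE/Ovx rat was below every Sham rat too (-0.34 ± 0.13, edgeR adjusted p = 0.179), and RE/Ovx and NE/Ovx rats overlapped. The call of Hlf was lost in 5 of 17 alternative fits, among them those without Sham rat 7, Sham rat 8, RE/Ovx rat 5 or RE/Ovx rat 8 (edgeR adjusted p up to 0.0995). That of Alas1 was lost in 8 of 17, those without the same 4 rats included (adjusted p up to 0.102). The other 7 output genes passed in no comparison. The list medians were -0.29 for RE/Ovx against NE/Ovx, -0.16 for RE/Ovx against Sham and 0.11 for NE/Ovx against Sham. By fold change, 3 of the 9 output genes were higher and 6 lower in the RE/Ovx group than in the NE/Ovx group. Every RE/Ovx rat was above every NE/Ovx rat for 2 genes, Hlf and Wee1 (0.16 ± 0.10). Every RE/Ovx rat was below every NE/Ovx rat for 2 genes, Usp2 (-0.51 ± 0.18, edgeR adjusted p = 0.921) and Pdk4 (-1.43 ± 0.55, edgeR adjusted p = 0.924). Between RE/Ovx and NE/Ovx rats, 11.6% of all tested genes did not overlap, and nothing is read from these counts. Wee1, Usp2 and Pdk4 were picked after their values were seen.

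**Figure D5:**
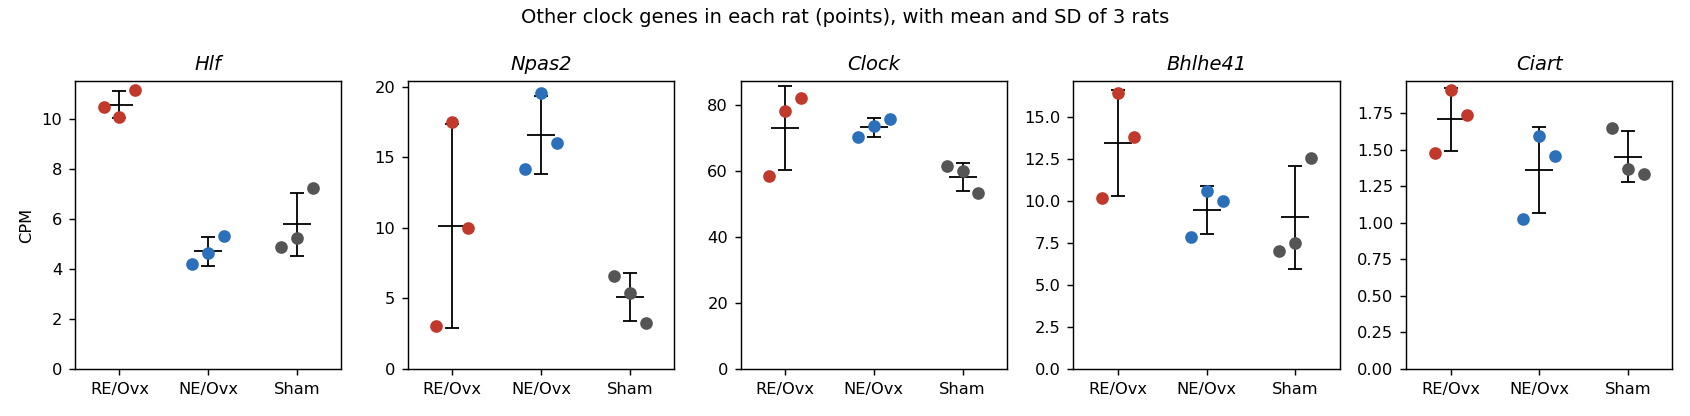
CPM (vertical axes, each from 0) of 5 clock genes outside the 10 in RE/Ovx, NE/Ovx and Sham rats, with a point for each rat and black bars for the mean and SD of the 3 rats. Hlf stands higher in all RE/Ovx rats (10.1 to 11.2 CPM), Npas2 and Clock are higher in NE/Ovx than in Sham rats, and Ciart, a repressor of the clock loop with 14 to 27 counts per rat, overlaps between all groups.

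Ranked by profile over the 9 rats, the 3 genes nearest to Dbp were Hlf and, from the set chosen at the start, Nr1d2 and Tef. The distance used was the root mean square difference of centred log2 CPM over the 9 rats, among 12980 genes with a mean log2 CPM of at least 1. Hlf was nearest (0.32), followed by Nr1d2 and Tef (0.40 each). Then came Peg12 (0.45), LOC685590 and Slc22a3 (0.46 each), Msto1 and Rhpn2 (0.47 each), Slc16a12 (0.48) and Nags (0.49), and Nr1d1 ranked 11th with a distance of 0.49. Slc22a3 encodes an organic cation transporter and Nags the enzyme that makes N-acetylglutamate, the activator of the urea cycle. Per3 ranked 17th and Per2 18th, whereas Per1 ranked 9253rd, Cry1 9984th, Nfil3 12108th and Arntl 12482nd. The clock genes ranked here other than Hlf were chosen, like Dbp, on these same counts with the group differences known. Their ranks can thus reflect that choice, and nothing is read from them. Hlf came from the list of clock output genes, which was also chosen with earlier results known. The rats share their libraries and groups across all genes, so this ranking is a description and was not tested.

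Marker sums of several cell types in the tibia differed between the same groups. All 8 defining bone markers were detected, none at 0, and they summed to 17289 to 28027 CPM in RE/Ovx rats, 16244 to 26093 CPM in NE/Ovx rats and 6331 to 9728 CPM in Sham rats. The bones had been cleaned of muscle before extraction. All 10 skeletal muscle markers were detected, none at 0. Their summed level was 6524 to 9770 CPM in RE/Ovx rats, 13700 to 17367 CPM in NE/Ovx rats and 5172 to 15690 CPM in Sham rats. The sum was thus higher in every NE/Ovx rat than in every RE/Ovx rat. In the Sham group it was 11565, 5172 and 15690 CPM in rats 7, 8 and 12, whose day-minus-night values were -0.55, 0.11 and 0.76. The 8 adipocyte markers, none at 0, summed to 412 to 617 CPM in RE/Ovx rats, 321 to 433 CPM in NE/Ovx rats and 85.4 to 194 CPM in Sham rats. The 6 B cell markers summed to 399 to 468 CPM in RE/Ovx rats, 306 to 512 CPM in NE/Ovx rats and 74.2 to 258 CPM in Sham rats. Bone, adipocyte and B cell sums were thus lower in every Sham rat than in any ovariectomized rat. The neutrophil markers, of which 7 of 8 were tested and summed, went the other way, with 3704 to 5801 CPM in RE/Ovx rats, 4982 to 5841 CPM in NE/Ovx rats and 6824 to 11708 CPM in Sham rats. So did the 7 erythroid markers, with 14191 to 28930 CPM in RE/Ovx rats, 19758 to 25839 CPM in NE/Ovx rats and 29042 to 36944 CPM in Sham rats. Of 6 megakaryocyte markers Gp1bb was at 0, and the 5 tested ones summed to 496 to 608 CPM in RE/Ovx rats, 465 to 575 CPM in NE/Ovx rats and 584 to 903 CPM in Sham rats, where RE/Ovx and Sham rats overlapped. These sums are weighted to the most abundant markers. In the mean centred log2 CPM, where each marker counts alike, bone and erythroid markers overlapped between Sham and ovariectomized rats. For bone, NE/Ovx rat 6 (-0.25) was below Sham rats 7 (-0.21) and 8 (-0.02). For erythroid markers, RE/Ovx rat 3 (0.18) and NE/Ovx rat 9 (0.13) were above Sham rat 8 (0.09). Adipocyte, B cell and neutrophil markers did not overlap in this measure either. Fewer cells of a type and less RNA per cell cannot be told apart in these bulk samples, and the part of the cell makeup in the values of the clock genes was not tested.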

How the data were processed

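RNA of the left tibias of 9 rats was measured, 3 in each group, and groups were taken from the labels. The kit kept the strand, and no source used here says if the counting did. For each rat the authors deposited 2 values of every gene, a read count in whole numbers and an FPKM. Within a gene, FPKM divided by count differed from rat to rat by a constant of the library (relative spread at most 2.01e-07). The submitters' processing notes name the build Rnor_6.0 and, without versions, Trimmomatic, Bowtie2, HISAT2, StringTie and DESeq. FPKM was used to compare levels between genes and in an alternative fit, and counts for all else.

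All 9 libraries entered 1 quasi-likelihood fit of the counts (edgeR 4.0.16 in R 4.3.3, filterByExpr, TMM, no term but the group), with Benjamini-Hochberg adjustment over the 14520 tested genes. Standard errors belong to the same fit. Exact permutation of 3 against 3 rats allows no p below 0.1 and was not used. Log2 CPM of single rats used a prior count of 2. Means are given with the SD of 3 rats. Motifs, list levels and the cosine fit were computed with numpy 2.4.6 and pandas 2.3.3 and drawn with matplotlib 3.10.9 (Python 3.11.15). Peak hours and lists rest on general knowledge, and the members and lists were chosen with earlier results of these data known. The rule for names took the 10 genes, of each other list up to 4 genes past the threshold with the smallest p (or the 2 with the smallest p for RE/Ovx against NE/Ovx where none passed), and the 8 genes outside the 10 nearest to Dbp. Alternatives were library totals, median-of-ratios factors, no filter, at least 10 counts in each library, the 2 groups alone, DESeq2 1.42.0, limma 3.58.1 on log2(FPKM + 1) or log2(FPKM + 0.1), and leaving out each rat. The study's other assays were not used here.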

Additional observations from a re-analysis of the deposited data

How the results depend on the processing

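The day-minus-night difference kept its sign in all 57 alternative values of the 3 comparisons, and no value past the threshold changed sign. Since the 10 genes were picked with their group differences known, the alternatives of the day-minus-night difference read the same values again and add no support. Genes past the threshold for RE/Ovx against NE/Ovx numbered 0, with 1 in the fit of the 2 groups alone, 5 in DESeq2 and 0 to 1 with a rat left out. Of the 10 clock genes 0 passed there, 1 (Dbp) in the fit of the 2 groups, 3 in DESeq2 and 0 to 1 with a rat left out (Dbp, without Sham rat 7). For RE/Ovx against Sham 1171 genes passed, 559 in the fit of the 2 groups, 1964 in DESeq2, and from 103 (without RE/Ovx rat 5, and likewise without RE/Ovx rat 8) to 1749 (without RE/Ovx rat 3) with a rat left out, with 601 without Sham rat 7 and 767 without Sham rat 12. Of the 10 clock genes 1 passed there, 3 in DESeq2 and 0 to 3 with a rat left out (Nr1d1, Nr1d2 and Nfil3 without RE/Ovx rat 3). For NE/Ovx against Sham 178 genes passed, 998 in DESeq2, 112 in limma on log2(FPKM + 1), and from 9 (without NE/Ovx rat 8) to 458 (without RE/Ovx rat 3) with a rat left out. Leaving out NE/Ovx rat 9 gave 10, RE/Ovx rat 8 gave 82, NE/Ovx rat 6 gave 87, Sham rat 12 gave 40 and Sham rat 7 gave 36 genes. Of the 10 clock genes 0 passed there, 2 in DESeq2 and 0 to 1 with a rat left out (Dbp, without Sham rat 7). For NE/Ovx against Sham 10 genes had the sign of 1 shift, and 6 to 10 with a rat left out, the lowest without Sham rat 12. The cause of these changes was not tested. Of the log2 fold changes of the 10 genes over all alternatives, 3 moved by more than their spread and 507 did not. No paired analysis was possible because the groups share only the rat number 8, which names a rat and pairs no animals. With 98 to 201 counts per rat, Cry1 had the fewest reads of the 10 genes, and 3 rats a group limit every comparison.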

Other observations

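Other gene groups that change with the time of day or with handling were read in the same fit. Of 8 immediate early genes, which cells induce within minutes of a stimulus, none passed in edgeR, and 4, 0 and 3 had an unadjusted p under 0.05 for RE/Ovx against NE/Ovx, RE/Ovx against Sham and NE/Ovx against Sham. These counts stand beside 5.28%, 25.6% and 20.5% of all tested genes. All 8 had a negative log2 fold change for RE/Ovx against NE/Ovx (median -0.72) and all 8 a positive one for NE/Ovx against Sham (median 0.73), and these comparisons share the NE/Ovx rats. Both medians rest on NE/Ovx rat 9, and without it they were -0.11, with 5 of 8 negative, and 0.13, with 6 of 8 positive. Fosb, a subunit of the AP-1 factor picked after its values were seen, was at 8.22, 9.20 and 64.2 CPM in NE/Ovx rats 6, 8 and 9. Nr4a1, a nuclear receptor of this class, was at 13.8, 14.8 and 18.3 CPM in RE/Ovx rats, at 29.45, 23.8 and 47.0 CPM in NE/Ovx rats and at 23.8, 13.4 and 30.4 CPM in Sham rats (-1.10 ± 0.31 on the log2 scale for RE/Ovx against NE/Ovx, with the standard error, edgeR adjusted p = 0.921). Atf3, a stress-induced transcription factor, differed by -1.10 ± 0.38 in the same comparison (edgeR adjusted p = 0.921).

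Of 12 glucocorticoid-induced genes, 10 were tested and none passed in edgeR. Of these, 1, 3 and 1 had an unadjusted p under 0.05 in the 3 comparisons in the same order, beside 5.28%, 25.6% and 20.5% of all tested genes. Dusp1, a phosphatase that inactivates MAP kinases, was at 116, 107 and 108 CPM in RE/Ovx rats, at 119, 160 and 228 CPM in NE/Ovx rats and at 138, 169 and 218 CPM in Sham rats. RE/Ovx rats were below all others (-0.62 ± 0.22 on the log2 scale against NE/Ovx, edgeR adjusted p = 0.921). Fkbp5, a chaperone of the glucocorticoid receptor, differed by -0.19 ± 0.10 between RE/Ovx and NE/Ovx rats (edgeR adjusted p = 0.948) and by -0.36 ± 0.10 between RE/Ovx and Sham rats (edgeR adjusted p = 0.0515). Of 10 heat and cold response genes 9 were tested, and Hsph1, a heat shock protein of the Hsp110 family, fell in RE/Ovx rats relative to Sham rats, at 85.25, 80.5 and 77.2 CPM in RE/Ovx rats and 101.6, 123 and 121 CPM in Sham rats (-0.51 ± 0.11 on the log2 scale, lower in 3 of 3 rats, edgeR adjusted p = 0.0259). In NE/Ovx rats Hsph1 was at 89.4, 79.4 and 101.2 CPM, below every Sham rat too (-0.36 ± 0.11 against Sham, edgeR adjusted p = 0.121). RE/Ovx and NE/Ovx rats overlapped. The call for RE/Ovx against Sham was lost in 4 of 17 alternative fits (adjusted p up to 0.106), those without Sham rat 8, Sham rat 12, RE/Ovx rat 5 or RE/Ovx rat 8. No other gene of this list passed, beside 8.06% of all tested genes for RE/Ovx against Sham. Of the 9 genes, 2, 2 and 3 had an unadjusted p under 0.05 in the same order, beside 5.28%, 25.6% and 20.5%. By fold change 3 were higher and 6 lower for RE/Ovx against Sham. Cirbp, picked after its values were seen, was higher in every RE/Ovx rat than in any other rat (0.30 ± 0.10 against Sham, edgeR adjusted p = 0.0988).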
